A study of Mus musculus with 40 samples.

Results

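A set of 9 transcription factors that direct cells towards neuronal and neuroendocrine fates was followed through primary mouse embryonic fibroblasts (MEFs) treated with doxorubicin, a drug that intercalates into DNA and traps topoisomerase II. The genes were Insm1, Insm2, Neurog1, Neurog2, Neurog3, Neurod1, Atoh1, Atoh8 and Olig2, and all 9 of these 9 names had a row among the 24062 genes of the count table. They were chosen by the counts of the KO libraries, since Insm1 and Neurog2 had no counts in the untreated KO cells and many with the drug, and the other members are relatives of these genes by family or function. The KO values of the members are therefore given as a description, without a test. Tests were made in the WT and Het libraries, whose counts the rule did not use. The set was still proposed with results of all libraries known, so these tests are not independent of the choice.

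MEFs were isolated at 13.5 days post coitum, used at passage 3 and had a mixed C57BL/6J-129P2OlaHsd background. Their Sall2 gene, which encodes a zinc finger transcription factor, was intact (WT), targeted on a single allele (Het) or targeted on both (KO), the targeted allele carrying a neomycin cassette and a flanking stretch of 129P2 chromosome. Cells were left untreated (control) or given 1 μM doxorubicin for 16 h. RNA-Seq counts came from 1 control and 1 doxorubicin library of WT, 1 of each of Het, and 3 control and 2 doxorubicin libraries of KO. The culture number in the labels was read as the embryo. A further KO doxorubicin column, labelled embryo 3, held the same count as embryo 2 for all 24062 genes, and both were counted as 1 sample. It had 4163 counts of Xist, expressed in female cells, and 0 of Y-linked genes. KO control had 5997 and 1 in embryo 2 and 31 and 6397 in embryo 3, so the column had the sex of embryo 2. KO control of embryo 1 had 3 and 3806, WT control 5913 and 1, and Het control 33029 and 3. Sex thus differed among the embryos. Since WT and Het had a single pair each and the labels do not say how cultures were derived, p-values describe only these libraries. In the WT and Het fit, a term for genotype takes up the difference between the embryos. Its p-values therefore rest on how alike the WT and Het pairs responded and on a spread shared over all genes. In KO without embryo as a term they measure the spread between the KO libraries.

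Neurogenins, Neurod1, Atoh1, Atoh8 and Olig2 are basic helix-loop-helix (bHLH) factors. They pair with E proteins, bind E-box motifs and, in the embryo, push progenitors to leave the cycle and become neurons, or, for Olig2, motor neurons and oligodendrocytes. Id proteins block them by sequestering E proteins. Notch signalling holds them down through Hes and Hey repressors, while the factors themselves switch on the Notch ligand genes Dll1 and Dll4. Insm1 and Insm2 are zinc finger repressors that act in newborn neurons and in endocrine cells, and Insm1 is a known target of neurogenins. Fibroblasts normally keep most of these genes silent.

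Libraries held 15560728 to 24122414 counts, and the pre-ribosomal transcript Rn45s took 0.0387% to 3.16% of them. Sall2 had 756 counts in WT control, 587 in Het control and 388, 432 and 424 in the libraries labelled KO control, so the targeted gene was not at 0 in KO. After doxorubicin the Sall2 counts were 188 (WT), 164 (Het) and 76 and 81 (KO embryos 1 and 2). All 12 fibroblast markers were detected, with a summed level of 17924 to 104166 CPM (counts scaled to library size) in control and 23436 to 66440 CPM with doxorubicin. The Het libraries and KO control of embryo 3 stood apart from the rest. The macrophage marker Emr1, for example, had 2604 counts in Het control and 1316 in KO control of embryo 3, against 88 to 204 in the remaining control libraries. Values of the members are therefore given embryo by embryo, which shows each result with and without those cells.

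Promoter sequences from RefSeq (assembly GRCm38.p6, the same assembly as the mm10 build of the files) were found for 8 of the 9 members, Insm1 being without an entry. Each holds 250 bases before and 50 bases after the RefSeq start, whereas the gene coordinates given with each member are those of GENCODE. The starts differed by 1 base or less for Neurog2, Atoh1, Atoh8 and Neurog3. The RefSeq start lay 510 bases before the GENCODE start for Insm2 and 17 before it for Neurog1, and inside the GENCODE gene by 93 bases for Olig2 and 115 for Neurod1. Shown, 5′ to 3′ on the plus strand, are those of the 3 members with a promoter that reached the highest counts from near 0, and that of Neurog3, the relative that stayed near 0. Capitals mark E-boxes (CANNTG, the same on both strands). The windows are Neurog2 at chr3:127632886-127633185, Insm2 at chr12:55598667-55598966, Olig2 at chr16:91225300-91225599 and Neurog3 at chr10:62132840-62133139.
Neurog2: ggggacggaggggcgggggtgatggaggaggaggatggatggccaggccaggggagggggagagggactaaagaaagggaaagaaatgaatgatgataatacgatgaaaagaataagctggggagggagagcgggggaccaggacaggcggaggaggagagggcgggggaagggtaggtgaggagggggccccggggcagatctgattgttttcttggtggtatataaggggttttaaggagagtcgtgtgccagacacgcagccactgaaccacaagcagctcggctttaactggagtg
Insm2: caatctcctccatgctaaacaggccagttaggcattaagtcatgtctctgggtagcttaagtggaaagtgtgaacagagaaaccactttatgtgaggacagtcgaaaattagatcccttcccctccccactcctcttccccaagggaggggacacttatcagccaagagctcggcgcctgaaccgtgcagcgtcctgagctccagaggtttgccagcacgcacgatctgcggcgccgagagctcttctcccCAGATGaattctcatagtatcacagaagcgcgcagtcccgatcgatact
Olig2: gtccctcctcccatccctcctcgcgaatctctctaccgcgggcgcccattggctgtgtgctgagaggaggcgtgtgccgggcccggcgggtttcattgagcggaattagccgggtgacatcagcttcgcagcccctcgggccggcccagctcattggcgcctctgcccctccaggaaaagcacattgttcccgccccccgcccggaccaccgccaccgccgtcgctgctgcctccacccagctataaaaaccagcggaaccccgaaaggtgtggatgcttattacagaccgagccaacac
Neurog3: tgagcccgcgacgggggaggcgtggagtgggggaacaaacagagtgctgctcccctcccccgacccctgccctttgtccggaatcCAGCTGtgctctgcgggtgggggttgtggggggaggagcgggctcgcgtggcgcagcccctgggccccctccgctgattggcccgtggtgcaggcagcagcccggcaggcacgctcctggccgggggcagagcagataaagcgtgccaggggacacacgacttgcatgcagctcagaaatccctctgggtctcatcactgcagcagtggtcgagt

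The Neurog2 and Olig2 windows held no E-box, whereas those of Insm2 and Neurog3 held 1 each. An E-box was present in 5 of the 8 members' promoters, against 72.3% of all 32851 promoters of that length in the table. The N box CACNAG, the site of Hes repressors, was present in 4 of 8, against 42.5% of all. CCAAT was also present in 4 of 8, against 37.4%. The TATA box TATAAA was found for Olig2 alone, against 13.6% of all promoters. The shorter TATAA, added after the values were seen and contained in TATAAA, lay 27 bases before the RefSeq start of Neurog2, 29 before that of Neurod1 and 8 before that of Olig2, the latter 2 places being inside the GENCODE genes, so 3 of 8 held it, against 24.9%. All motifs were searched on both strands. The members' windows had a median GC content of 65.8% and a median observed-to-expected CpG ratio of 0.79, against 52.7% and 0.384 over all promoters. The ratio, also looked at after the values were seen, ranged from 0.547 for Neurog3 to 0.891 for Neurog1.

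Insm1, a single exon on chromosome 2 (146221921 to 146225020), had 0 counts in WT control, 1 in Het control and 0 in each of the 3 KO control libraries. After doxorubicin the counts were 451 (WT), 244 (Het) and 382 and 410 (KO embryos 1 and 2). Every treated library lay far above every untreated one, and the Het culture was the lowest of the treated ones. A control count of 0 allows up to 3 counts, so the level was at least 149-fold higher in WT, and at least 136-fold and 111-fold higher in the 2 KO embryos. In Het the ratio was 284, with a 95% counting interval of 50.4 to 11244.

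Insm2, its single-exon paralogue on chromosome 12 (55599427 to 55602086), had 1 count in KO control of embryo 2 and 0 in the other 4 control libraries. The treated WT library had 315 counts, the Het library 299, and the KO libraries 279 and 308. Scaled by library size, the 4 treated libraries lay within 1.11-fold of each other, from 14.1 to 15.7 CPM, the narrowest range of any member. The bounds were at least 104-fold in WT, 116-fold in Het and 99.1-fold in KO embryo 1, and the ratio in KO embryo 2 was 251 (95% counting interval 44.7 to 9938).

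Among the neurogenins, Neurog2, which specifies cortical and sensory neurons, was without a single count in all 5 control libraries. The treated WT library held 213 counts of it, the Het library 181, and the KO libraries 146 and 200. The level was at least 70.2-fold higher in WT, 70.1-fold in Het, and 51.8-fold and 54.3-fold in KO. Neurog1, which drives sensory neuron formation beside Neurog2, was also at 0 in all 5 control libraries but reached only 17 (WT), 24 (Het) and 14 and 15 (KO) counts with the drug. Its bounds were at least 5.6-fold in WT, 9.3-fold in Het, and 4.97-fold and 4.07-fold in KO. Neurog3, the factor of pancreatic endocrine progenitors, had 0 counts in every control library, a single count in treated WT and Het, and 3 and 0 counts in the treated KO embryos. Both groups of Neurog3 were at or under the limit that a count of 0 allows, so a change was not detectable at this depth. Part of its last exon overlaps Fam241b on the opposite strand, listed in the table under its older name 2010107G23Rik, and shared reads would be dropped if strand was not used. The 3 neurogenins, close paralogues on 3 different chromosomes (13, 3 and 10), thus covered the range from 146 to 213 counts down to 3 or fewer with doxorubicin.

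Neurod1, which acts downstream of neurogenins in neurons and islet cells, had 1 count in WT control, 2 in Het control and 0, 0 and 3 in KO control. Its treated counts were 30 (WT), 48 (Het) and 27 and 32 (KO). The ratio was 29.7 in WT (95% counting interval 4.93 to 1211) and 27.9 in Het (7.31 to 237), and the bounds in KO were at least 9.59-fold and 8.69-fold. In the annotation Neurod1 overlaps Cerkl on its own strand and Gm26755 on the opposite strand. Cerkl has a row in the table, so reads over any exon shared with it would be dropped. Whether the exons overlap in the annotation used for counting was not read. Gm26755 has no row, and its reads over Neurod1 could be counted to Neurod1 if strand was not used.

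Atoh1, the factor of hair cells and cerebellar granule neurons, was at 0 in all 5 control libraries and after treatment had 22 counts in WT cells, 27 in Het cells and 23 and 31 in the KO embryos. This was a level at least 7.25-fold higher in WT, 10.5-fold in Het, and 8.17-fold and 8.41-fold in KO. Atoh8, a more distant relative with broader expression, was the only member clearly present in untreated cells. It had 401 counts in WT control, 161 in Het control and 282, 428 and 246 in KO control, and after treatment 179 (WT), 137 (Het) and 200 and 235 (KO). Treated and untreated libraries overlapped. The ratio was 0.441 in WT (95% counting interval 0.368 to 0.528), 0.989 in Het (0.781 to 1.25), and 0.756 (0.627 to 0.909) and 0.447 (0.38 to 0.525) in KO.

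Olig2, on chromosome 16 (91225457 to 91228677), had 1 count in WT control, 6 in Het control and 4, 1 and 0 in KO control. The treated cells had 142 counts (WT), 187 counts (Het) and 114 and 117 counts (KO). The groups were far apart, and the Het culture was highest in both. The ratio was 140 in WT (95% counting interval 24.8 to 5586), 36.2 in Het (16.3 to 99.9), 30.4 in KO embryo 1 (11.5 to 113) and 95.3 in KO embryo 2 (16.8 to 3795). Counting intervals and limits from a count of 0 cover counting error only.

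**Figure D1:**
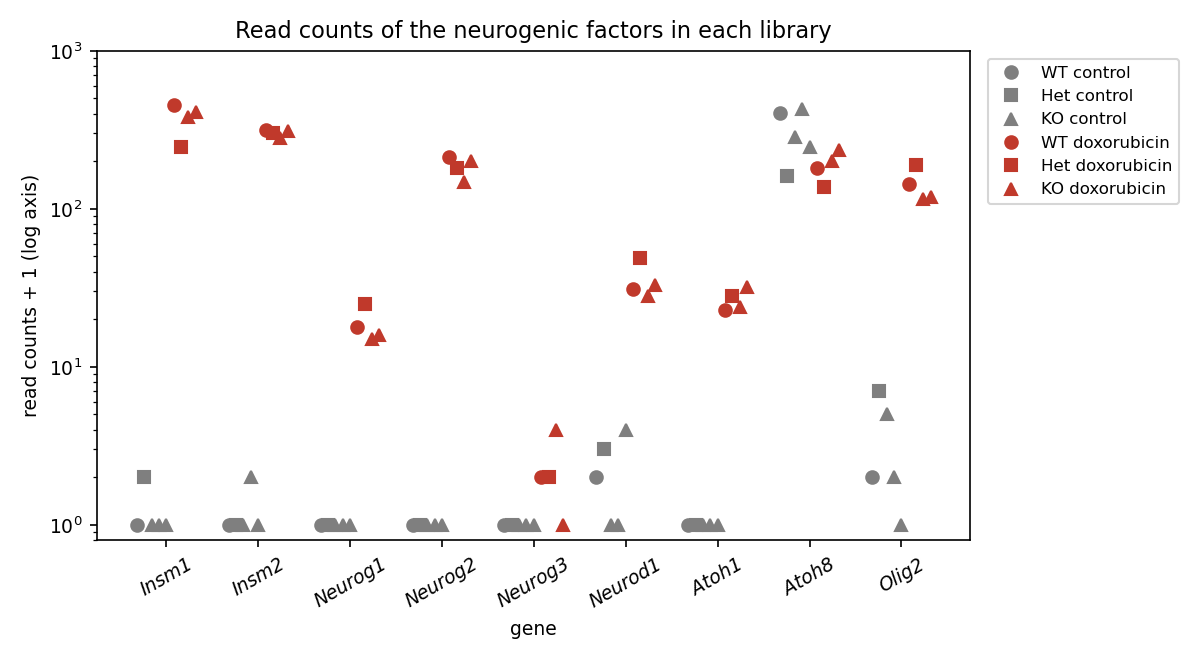
Read counts plus 1 (log axis) of each of the 9 genes in the 5 control (grey) and 4 doxorubicin (red) libraries, with circles for WT, squares for Het and triangles for KO. Insm1, Insm2 and Neurog2 sit at 0 or 1 counts in control and between 146 and 451 with doxorubicin, whereas the Atoh8 groups overlap and Neurog3 stays at 3 counts or fewer.

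**Figure D2:**
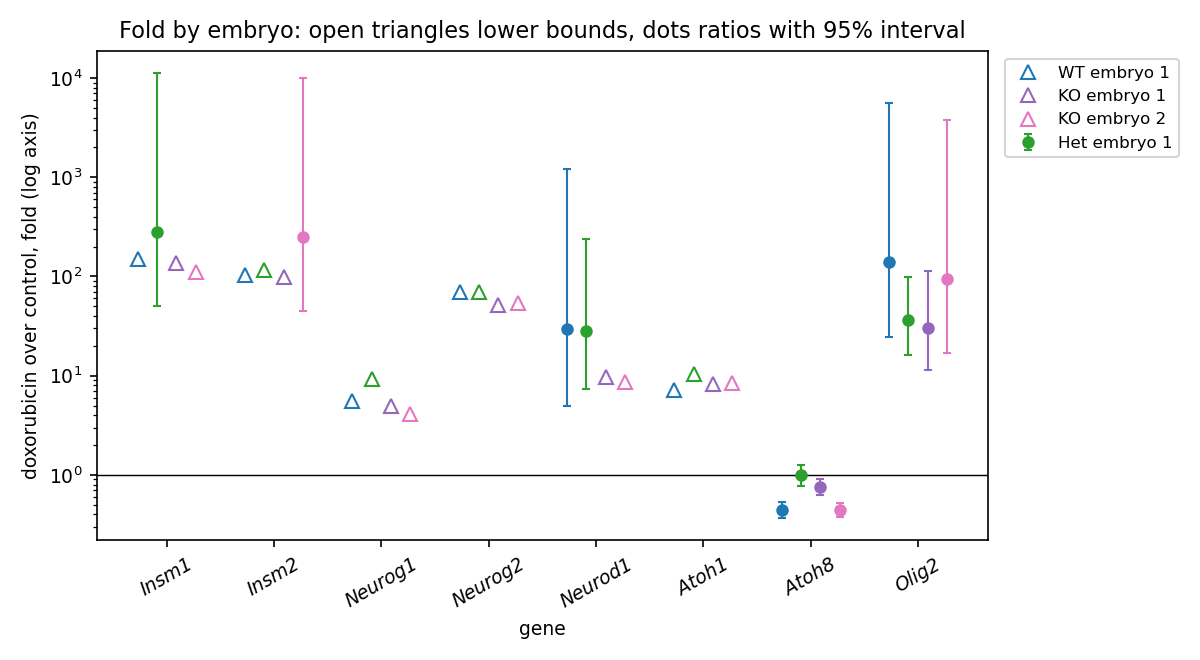
Fold of doxorubicin over control (log axis) within each of 4 embryos. Open triangles are lower bounds where the control had 0 counts, dots are ratios with 95% counting intervals, and the line marks no change, Neurog3 having no point, since both of its groups were at or under 3 counts, and Atoh8 is the only gene with points at or below the line.

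The WT and Het pairs were then tested in a single fit over all genes with enough counts (edgeR quasi-likelihood test with genotype as a term, false discovery rate, FDR, by Benjamini-Hochberg). With doxorubicin, 2594 of 15418 genes tested were higher at an FDR under 0.01, which is 16.8%, and 1680 were lower, which is 10.9%. Of the 9 members 8 had enough counts, and 7 of them were higher. These 7 passed the filter on low counts through the treated libraries, where they were high, so their number supports nothing by itself. Neurog3 was left out by the filter.

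The FDR in this edgeR fit was 7.71e-06 for Insm1, 1.12e-05 for Insm2, 2.44e-05 for Neurog2 and 6.66e-05 for Olig2. It was 0.000949 for Neurod1, 0.00143 for Atoh1 and 0.0021 for Neurog1. Atoh8 did not pass, with a log2 fold change of -0.50 (SE 0.39, FDR 0.327). Olig2 had a fitted log2 fold change of 5.83 (SE 0.64), and the fitted values of the members with no counts in control depend on the prior count of the fit and are not given. Without the genotype term none of the 7 kept an edgeR FDR under 0.01 (0.0164 to 0.0574), and leaving out the WT or the Het pair ended each call too (0.0255 to 0.14). The latter fits hold a single pair of the remaining genotype, which was assumed to vary like the KO libraries. Under those 3 settings no gene of the table passed at an FDR under 0.01, so each count for WT and Het given here falls to 0, while an unadjusted edgeR p under 0.05 was given to 4392, 3834 and 4573 genes. DESeq2 did not call Insm2 (adjusted p = 0.0206) or Neurog2 (adjusted p = 0.0305).

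Per kb of exon, which allows genes to be compared, the treated libraries fell into 3 tiers. Insm1 was at a mean of 5.96 CPM per kb (range 3.74 to 7.24, n = 4), Insm2 at 5.58 (5.31 to 5.89), Neurog2 at 4.09 (3.61 to 4.76), Atoh8 at 3.95 (2.77 to 4.68) and Olig2 at 2.73 (2.12 to 3.52). Neurod1 at 0.617 (0.538 to 0.837), Atoh1 at 0.598 (0.516 to 0.671) and Neurog1 at 0.511 (0.408 to 0.677) formed a lower tier, and Neurog3 was at 0.0426 (0 to 0.107). Neighbours in this order overlapped within each tier, apart from Insm2 and Neurog2, whose ranges did not meet, whereas the lowest Olig2 value was above the highest Neurod1 value. In control, Atoh8 was at 6.5 CPM per kb (2.8 to 10.2, n = 5), while the highest value of any other member was 0.0971 CPM per kb, that of Olig2 in Het.

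**Figure D3:**
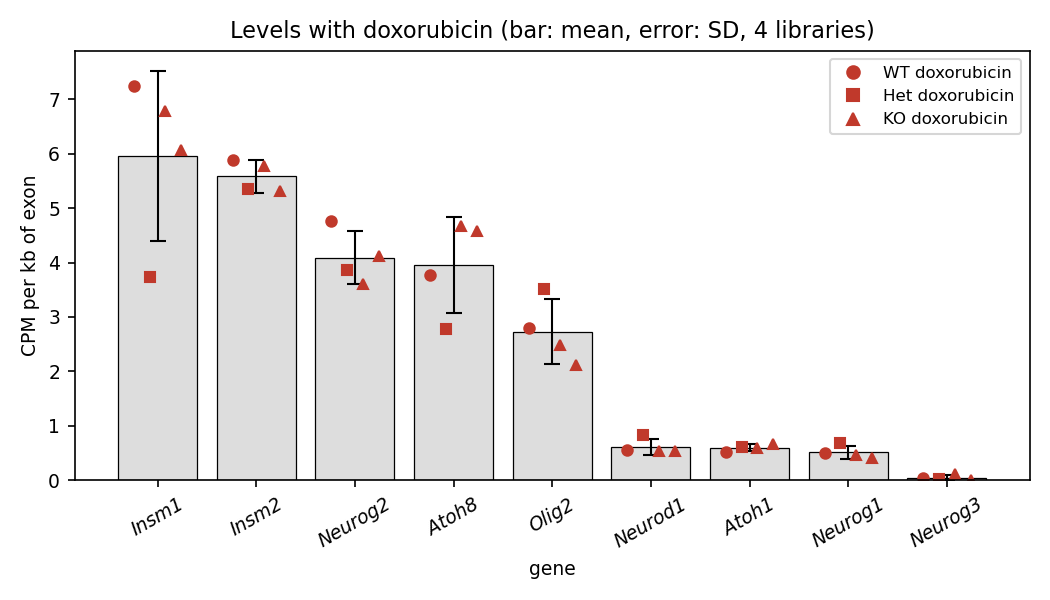
Level in CPM per kb of exon with doxorubicin, as the mean (bar) and SD (error bar) of 4 libraries, with each library as a point (circle WT, square Het, triangle KO). The means run from 5.96 for Insm1 to 0.0426 for Neurog3, with a gap between Olig2 at 2.73 and Neurod1 at 0.617.

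No single treated library was highest for every member. Insm1 was 1.93-fold higher in the highest treated library (WT, 22.4 CPM) than in the lowest (Het, 11.6 CPM), whereas Neurog1, Neurod1 and Olig2 were highest in that same Het library, at 1.14, 2.28 and 8.89 CPM. In KO the treated means were 19.9 CPM for Insm1 (SD 1.58, n = 2), 14.8 for Insm2 (SD 0.877) and 8.61 for Neurog2 (SD 0.801). The WT library was above that KO mean for these 3 genes, at 22.4, 15.7 and 10.6 CPM, whereas the Het library was below it for Insm1 and Insm2, at 11.6 and 14.2 CPM, and level with it for Neurog2, at 8.61 CPM. Genotypes were not compared by a test, since the KO libraries took part in the choice of the genes.

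To place the members among all genes, each gene was given the smaller of its WT and Het folds, with control set to no less than 3 counts. Of 24062 genes, Insm2 ranked 23, Insm1 26, Neurog2 40 and Olig2 116, at 104-, 94.5-, 70.1- and 36.2-fold. Neurod1 ranked 601, Atoh1 840 and Neurog1 1120, at 9.89-, 7.25- and 5.6-fold. Atoh8 and Neurog3 ranked 13756 and 15380.

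In all, 7768 genes had 3 counts or fewer in every control library, and 7 of the 9 members were among them. Of these 7768 genes, 43 (0.554%) had at least 100 counts in every treated library, Insm1, Insm2 and Neurog2 included. At least 10 counts in every treated library were reached by 330 (4.25%), to which Neurog1, Neurod1 and Atoh1 also belonged, while 77.9% stayed at 3 counts or fewer in every treated library. As a gene family that fibroblasts keep silent, the 1122 olfactory receptor genes, chosen after values were seen, together had 88 to 426 counts in control and 225 to 596 with doxorubicin. Only 1 of the 1103 olfactory receptor genes silent in control reached 10 counts in every treated library.

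The genes whose log2 CPM followed that of Insm1 most closely over the 9 libraries were Sp5 (Pearson's r = 0.9993), Ccno, Ihh, Irx6 and Adra2c (0.9989). For Neurog2 they were Apoa5 (0.9999), Ptf1a, Skor2, Hrh3 and Nkx2-4 (0.9994). These values describe a step between control and doxorubicin that the libraries share, and 197 genes had an r of at least 0.99 with Insm1 and 214 with Neurog2. Apoa5 had 0 counts in every control library and only 9 to 11 with doxorubicin, so its r rests on few counts. Ptf1a, a bHLH factor of pancreas and cerebellum, had 0 counts in every control library and 102 to 149 with doxorubicin. Ihh, a hedgehog ligand of cartilage, had at most 2 counts in control and 318 to 461 with doxorubicin.

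Several proneural relatives outside the 9 members were higher too. Of 19 listed genes, 10 had enough counts for the WT and Het test, and all 10 were higher, against 16.8% of all genes tested. Apart from Bhlhe22, named after its values were seen, these 10 also passed the filter on low counts through the treated libraries, so their number supports nothing by itself. Of the 19, 13 had 3 counts or fewer in every control library, and 4 of these had at least 10 in every treated library. Bhlhe23, a factor of retinal and brain interneurons, went from 0 counts in WT and Het control to 240 in WT and 306 in Het (edgeR FDR 1.42e-05). Ptf1a went from 0 to 149 and 107 counts (FDR 5.92e-05), and Neurod2, a factor of cortical neurons, from 0 and 1 to 108 and 186 (FDR 3.31e-05). Ascl3, known from salivary gland, went from 0 to 53 and 101 counts (FDR 0.000166). Others stayed near 0 with doxorubicin: Neurod4 had 1 count in WT and 0 in Het, Neurod6 0 and 1, Atoh7 2 and 4, and Olig3 3 and 6. Between these lay Ascl4 with 8 counts in WT and 18 in Het, Ascl5 with 14 and 5, Nhlh1 with 6 and 12, Scrt2 with 8 and 13 and Nhlh2 with 18 and 31. In the KO libraries, where 8.06% of 14904 genes tested were higher and 4.76% lower, 5 of 10 relatives were higher and none was lower. The KO fit with embryo as a term, which leaves out control embryo 3, called all 10 higher, and this fit also called 36.3% of all 14697 genes tested higher and 33.7% lower.

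The E protein partners of the bHLH factors went down, while their Id inhibitors split. Of 7 genes, 4 were lower in WT and Het (57.1%, against 10.9% of all genes), all 3 E proteins among them. Another 2 were higher (28.6%, against 16.8%). The median log2 fold change was -1.07 against 0.06 over all genes tested. The E protein gene Tcf3 fell by 1.91 on the log2 scale (SE 0.26, edgeR FDR 0.000228), from 2418 to 563 counts in WT and from 2477 to 562 in Het. Tcf4, another E protein, fell by 1.33 (SE 0.26, FDR 0.00176). Of the inhibitors, Id3 fell by 2.19 (SE 0.25, FDR 9.28e-05), from 4210 to 819 counts in WT, whereas Id4 rose by 2.27 (SE 0.35, FDR 0.000545), from 96 to 386. In KO without embryo as a term, 2 of the 7 were lower (28.6%, against 4.76% of all genes) and none higher (against 8.06%). With that term 4 were lower (57.1%) and 2 higher (28.6%), against 33.7% and 36.3% of all genes.

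Notch ligands that proneural factors are known to switch on were read next. Among 9 ligands and receptors 3 were higher (33.3%, against 16.8% of all genes), all of them ligands, and none was lower in WT and Het (median log2 fold change 0.67). Dll1 had 4 counts in WT control and 619 with doxorubicin, and 31 and 676 in Het (log2 fold change 5.65, SE 0.54, edgeR FDR 2.51e-05). Dll4 went from 2 to 208 counts in WT and from 3 to 156 in Het (FDR 2.96e-05). Jag2 went from 12 to 935 and from 52 to 2159 (FDR 2.79e-06). Dll3, with 0 and 2 counts in control and 16 and 14 with doxorubicin, did not pass (FDR 0.012). In KO 3 of 8 were higher (37.5%, against 8.06% of all genes) and none lower (against 4.76%). With embryo as a term 5 were higher (62.5%) and 2 lower (25%), where all genes gave 36.3% and 33.7%.

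Among 20 Notch effectors and modulators 9 were higher (45%, against 16.8% of all genes) and 2 lower (10%, against 10.9%) in WT and Het (median log2 fold change 1.06). Hes2 went from 1 to 44 counts in WT and from 0 to 81 in Het (edgeR FDR 0.000336). Hes7, part of the segmentation clock, went from 1 to 50 and from 4 to 99 (FDR 0.00029), and Hes3 from 1 to 13 and from 2 to 31 (FDR 0.0046). Nrarp, a Notch-induced feedback inhibitor, rose from 6 to 920 counts in WT and from 58 to 1011 in Het (log2 fold change 5.49, SE 0.56, FDR 4.16e-05). The 2 that fell, named after their values were seen, were the coactivator gene Maml2 (log2 fold change -2.53, SE 0.36, FDR 0.000312) and the repressor gene Heyl (-2.17, SE 0.37, FDR 0.000928). Hes1, named here after its values were seen as the chief Notch effector of progenitors, had 802 and 417 counts in WT and 820 and 565 in Het and did not pass (log2 fold change -0.53, SE 0.29, FDR 0.163). In KO 5 of 19 effectors were higher (26.3%, against 8.06% of all genes) and 1 lower (5.26%, against 4.76%). With embryo as a term 10 were higher (52.6%) and 7 lower (36.8%), where all genes gave 36.3% and 33.7%.

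Repressors of neuronal genes were read beside the 16.8% higher and 10.9% lower of all genes. In the REST complex, which silences neuronal genes outside the nervous system, none of 12 genes was higher and 1 was lower, the phosphatase gene Ctdsp1 (log2 fold change -1.63, SE 0.30, edgeR FDR 0.00151), at a median of -0.23. Of 20 Polycomb group and H3K27 demethylase genes, 2 were higher and 1 lower, at a median of 0.09. Ezh2, the H3K27 methyltransferase, rose from 841 to 2116 counts in WT and from 608 to 1162 in Het (log2 fold change 1.34, SE 0.25, FDR 0.00155), Jarid2 rose by 1.26 (SE 0.29, FDR 0.00446) and Cbx6 fell by 1.37 (SE 0.26, FDR 0.00173). Named after their values were seen, Rest, Sin3a and Suz12 did not pass. Rest had a log2 fold change of 0.48 (SE 0.26, FDR 0.144). Sin3a went from 1508 to 1267 counts in WT but from 1097 to 4624 in Het. Suz12 likewise went from 1708 to 610 in WT but from 1157 to 2318 in Het, so the embryos moved in opposite directions for both genes. In KO none of the 12 and none of the 20 passed in edgeR, where all genes gave 8.06% higher and 4.76% lower. An unadjusted edgeR p under 0.05 was given to 3 and 7 of them. With embryo as a term 2 of 12 and 5 of 20 were higher (16.7% and 25%, against 36.3% of all genes). Lower were 5 of 12 and 6 of 20 (41.7% and 30%, against 33.7%).

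Of 34 neurogenic targets and early neuronal genes, 32 were tested in WT and Het, 8 were higher (25%, against 16.8% of all genes) and 2 lower (6.25%, against 10.9%), at a median log2 fold change of 1.02. Pou4f1, a sensory neuron factor, went from 0 to 613 counts in WT and from 4 to 774 in Het (edgeR FDR 4.43e-06). Eomes, of cortical intermediate progenitors, went from 6 to 276 and from 1 to 215 (FDR 3.23e-05). The RNA-binding protein gene Elavl3 went from 0 to 47 and from 9 to 243 (FDR 0.000166), and Ina, a neuronal intermediate filament, from 6 to 315 and from 11 to 256 (FDR 2.74e-05). Tbr1 went from 0 to 28 and from 2 to 24 counts (FDR 0.003), Myt1 from 0 to 16 and from 3 to 24 (FDR 0.00751), and Rbfox3 had 4 counts in WT and 19 in Het with doxorubicin, too few to test. Further genes of this list were chosen after their values were seen. The remaining higher genes were Rnd2 and Cdk5r1. Rnd2 went from 117 to 587 counts in WT and from 168 to 533 in Het (log2 fold change 2.20, SE 0.32, FDR 0.000366). Cdk5r1 rose by 2.58 on the log2 scale (SE 0.42, FDR 0.000703). Gadd45g fell by 1.47 on the log2 scale (SE 0.25, FDR 0.000986) and Map2, a microtubule protein of dendrites, by 1.13 (SE 0.28, FDR 0.00788). The neuronal tubulin gene Tubb3 did not pass, with 1734 and 1662 counts in WT (log2 fold change 0.09, SE 0.25, FDR 0.792), nor did Stmn2 (FDR 0.768), Syt1 (FDR 0.833), Snap25 (FDR 0.18) or Dcx, which had 1 and 4 counts in WT and 149 and 20 in Het (FDR 0.178). In KO 5 of 26 were higher (19.2%, against 8.06% of all genes) and none lower (against 4.76%). With embryo as a term 14 were higher (53.8%) and 4 lower (15.4%), against 36.3% and 33.7% of all genes.

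In the pancreatic endocrine list, the setting of Neurog3, Neurod1 and Insm1, 8 of 15 genes were tested in WT and Het, 4 were higher (50%, against 16.8% of all genes) and none was lower, at a median log2 fold change of 2.76. The insulin gene activator Mafa went from 5 to 259 counts in WT and from 1 to 216 in Het (edgeR FDR 2.84e-05), and Nkx6-1 from 14 to 301 and from 26 to 223 (FDR 0.000125). The hormone gene Ins2 had no count in any library, Ins1 had 1 in KO with doxorubicin and none elsewhere, and Pdx1 likewise had 1. Pax4, Rfx6 and Ppy had 2, 0 and 0 counts in WT with doxorubicin and 1, 3 and 2 in Het, and Gcg had 2 in WT and 16 in Het. In KO 3 of 6 were higher (50%, against 8.06% of all genes) and none lower (against 4.76%). With embryo as a term 5 of 6 were higher (83.3%, against 36.3% of all genes).

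As a check of the treatment, 20 p53 target genes were read beside the members. In WT and Het 2 were higher (10%, against 16.8% of all genes), Perp (log2 fold change 2.22, SE 0.29, edgeR FDR 0.000198) and Rrm2b (1.54, SE 0.31, FDR 0.00213), and 1 was lower (5%, against 10.9%), Phlda3 (-1.42, SE 0.28, FDR 0.00186), with a median over the list of -0.24. Cdkn1a and Mdm2, named after their values were seen, did not pass. Cdkn1a went from 11147 to 5443 counts in WT and from 13009 to 6274 in Het (-0.83, SE 0.23, FDR 0.0132), and Mdm2 had a log2 fold change of -0.04 (SE 0.23, FDR 0.897). A rise of the list as a whole was thus not seen, and the reason was not tested. In KO 2 were higher (10%, against 8.06% of all genes) and none lower (against 4.76%). With embryo as a term 7 were higher (35%) and 6 lower (30%), close to the 36.3% and 33.7% of all genes. The lists and the members share the treated and control libraries, so they are not independent of each other. List genes with few counts in control, such as Dll4, Hes2, Pou4f1, Eomes and Mafa, passed the filter on low counts through the treated libraries. The shares of higher genes in their lists therefore support nothing by themselves.

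**Figure D4:**
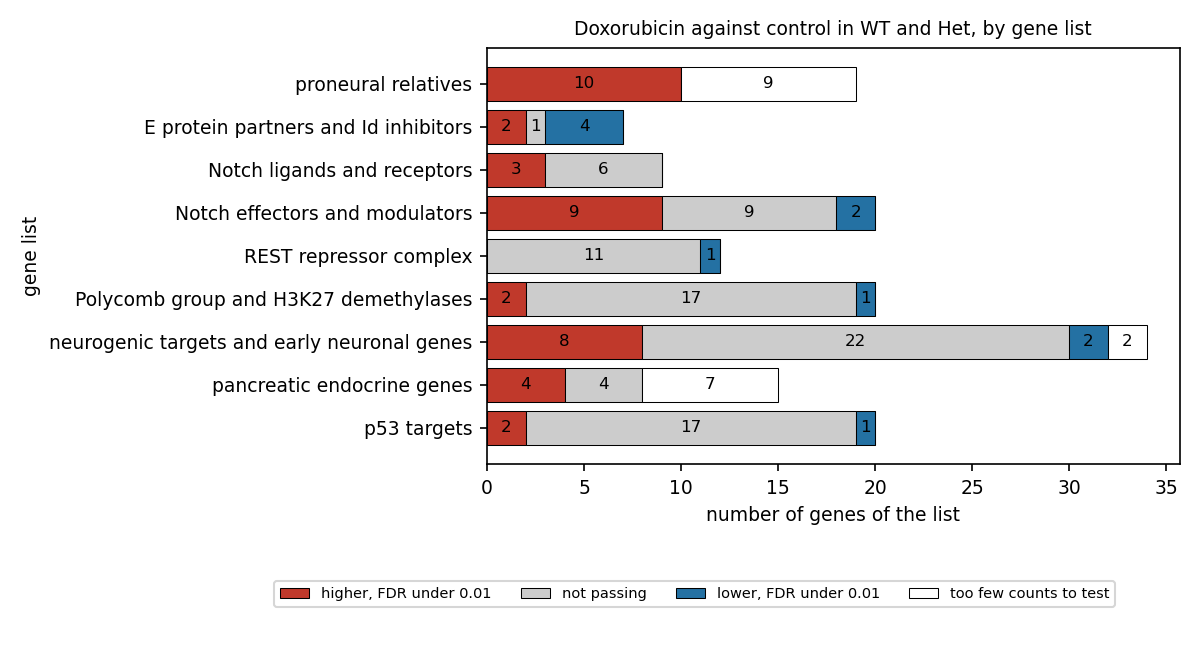
Number of genes of each list that were higher (red), lower (blue), not past an FDR of 0.01 (grey) or left out for low counts (white) with doxorubicin in WT and Het. The proneural relatives show 10 higher and 9 left out for low counts, most of these 10 having passed the filter through the treated libraries, and the Notch effectors show 9 higher and 2 lower of 20. Of all genes tested, 16.8% were higher and 10.9% lower.

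Markers of the cell types in which the members act were summed in the same libraries. Over all genes tested in WT and Het, 16.8% were higher and 10.9% lower. Of the markers tested, 3 of 7 neural progenitor markers (42.9%) and 2 of 5 neuron markers (40%) were higher. Among oligodendrocyte lineage markers 20% were higher and 20% lower, and 40% of Schwann cell and neural crest markers were higher. The 7 neural progenitor markers summed to 435 to 860 CPM in control and 630 to 802 CPM with doxorubicin, and 3 were higher in WT and Het, namely Hes5 (from 0 to 30 counts in WT), Sox1 (from 0 to 53) and Prom1 (from 17 to 253). The others, named after their values were seen, did not pass: Sox2 (log2 fold change 2.83), Pax6 (2.31), Nes (0.30) and Fabp7 (-0.86). The 7 neuron markers summed to 49.8 to 88.9 CPM in control and 60.8 to 98.9 CPM with doxorubicin. Of these, Gad1 went from 1 to 131 counts in WT and Gad2 from 0 to 19, and both passed, while Rbfox3 was at 0 in Het and KO control and at 1 count in WT control. Hes5, Sox1, Gad1 and Gad2 passed the filter on low counts through the treated libraries, so the progenitor and neuron shares support nothing by themselves. Tubb3 (log2 fold change 0.09), Syt1 (-0.18) and Snap25 (1.54), named after their values were seen, did not pass. Tubb3 alone had 87.3 CPM in WT control, out of a sum of at most 88.9 CPM. The 7 oligodendrocyte lineage markers summed to 55.4 to 287 CPM in control and 52.1 to 111 CPM with doxorubicin. Among them Olig1 was higher, Cspg4 was lower, and Mog had 4 counts in WT and 16 in Het with doxorubicin. Schwann cell and neural crest markers summed to 8.2 to 38.6 CPM in control and 32.3 to 40.4 CPM with doxorubicin, and Foxd3 and Erbb3 of the 6 were higher. Sox10, named after its values were seen, stood in this list and in the oligodendrocyte list. It went from 26 to 11 counts in WT and from 239 to 27 in Het and did not pass (log2 fold change -2.11, SE 0.58, edgeR FDR 0.0129). Ngfr (-0.85, FDR 0.12) and S100b (0.71, FDR 0.427), also named after their values were seen, did not pass either.

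Some markers of tissues unrelated to the members passed as well. Of those tested, 50% of epithelial, 20% of endothelial, 16.7% of macrophage and 20% of muscle markers were higher, against 16.8% of all genes. The endothelial, macrophage and muscle shares were thus near that of all genes. Krt5 and Epcam, the higher epithelial markers, passed the filter on low counts through the treated libraries. Lower were 25% of epithelial and 8.33% of fibroblast markers, against 10.9%. Of 6 epithelial markers, which summed to 6.96 to 19 CPM in control and 6.94 to 13 CPM with doxorubicin, Krt5 (from 0 to 54 counts in WT) and Epcam (from 3 to 73) were higher and Krt18 was lower, while Krt14 had 0 counts in WT and 2 in Het with doxorubicin. Pecam1 was higher among 5 endothelial markers, which summed to 17.6 to 47.3 CPM in control and 35.6 to 90.7 CPM with doxorubicin. Cd68 was higher among 6 macrophage markers found in the table, which summed to 42.4 to 275 CPM and 56.2 to 300 CPM. The others, named after their values were seen, did not pass: Csf1r (log2 fold change -0.85), Ptprc (-0.70), Emr1 (0.54), Cd14 (0.45) and Aif1 (0.21). Myh6 was higher among 6 muscle markers, which summed to 6.29 to 81.9 CPM and 7.62 to 61.1 CPM, while Myf5 had 2 counts in WT and 0 in Het with doxorubicin. The other muscle markers, named after their values were seen, did not pass: Myog (log2 fold change -1.93), Myod1 (-0.64), Actc1 (-0.63) and Tnnt2 (0.16). Pdgfrb was lower among the fibroblast markers. In these bulk libraries a change in the number of cells of a type and a change in RNA per cell cannot be told apart, and the part of other cell types in the members' rise was not tested.

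All members but Atoh8 are short genes. Insm1, Insm2, Neurog1 and Atoh1 consist of a single exon, another 4 have 2 exons, and 8 of the 9 span less than 5 kb, against 29401 bases for Atoh8. Over all tested genes with a single annotated locus, 32.7% of 507 genes with 1 exon were higher in WT and Het and 4.34% lower, against 16.3% and 11.2% of 14198 genes with more exons. By span, 25.6% of genes up to 5 kb were higher and 5.03% lower, whereas 11.6% of genes over 100 kb were higher and 13.5% lower. The part of gene length in the members' rise was not tested.

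**Figure D5:**
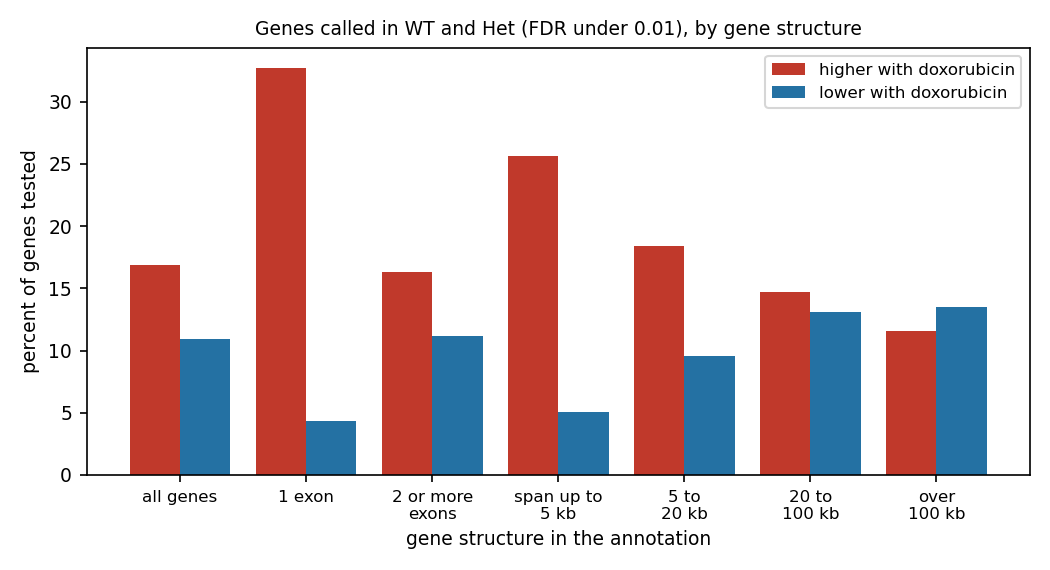
Percent of tested genes that were higher (red) or lower (blue) with doxorubicin in WT and Het at an FDR under 0.01, by exon number and by span in the annotation. The share of higher genes is 32.7% for genes with 1 exon and 25.6% for genes up to 5 kb, and it is 11.6% for genes over 100 kb.

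Neighbours were the nearest genes that do not overlap a member. Overlapping genes, such as 2010107G23Rik at Neurog3 and Cerkl at Neurod1, were not read. Of 18 such neighbours in the table, 15 were tested in WT and Het, 4 were higher (26.7%, against 16.8% of all genes) and 1 lower (6.67%, against 10.9%). Ralgapa1, 0.81 kb from Insm2, had 898 counts in WT control and 435 with doxorubicin (log2 fold change -0.63, SE 0.29, edgeR FDR 0.0965). Zgrf1, 15.1 kb from Neurog2, had 173 and 171 counts (log2 fold change 0.26, SE 0.36, FDR 0.593), and Alpk1 on the other side had 143 and 198 (0.84, SE 0.32, FDR 0.0487). Crnkl1 and Ralgapa2 beside Insm1 had log2 fold changes of 0.09 (SE 0.27, FDR 0.818) and -0.42 (SE 0.36, FDR 0.366). Both neighbours of Olig2 were higher, Olig1 at 41.1 kb (log2 fold change 3.61, SE 0.83, FDR 0.0048) and 4932438H23Rik at 130 kb (4.03, SE 0.91, FDR 0.00442). Olig1 had 0 counts in WT control and 65 with doxorubicin, and 27 and 121 in Het.

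A gene near Neurog3 was higher although Neurog3 itself stayed near 0. Tspan15, 50.6 kb away, had 35 counts in WT control and 391 with doxorubicin, and 42 and 241 in Het (log2 fold change 3.21, SE 0.42, edgeR FDR 0.00018), and Gm5424 on the other side had no counts. Sftpb beside Atoh8 was higher (4.25, SE 0.99, FDR 0.00521), with 1 and 13 counts in WT, and St3gal5 did not pass (-0.76, SE 0.27, FDR 0.0374). Smarcad1, 311 kb from Atoh1, fell by 1.14 (SE 0.28, FDR 0.00647). Tifab and Cxcl14 beside Neurog1 and Itga4 beside Neurod1 did not pass (FDR 0.257, 0.0195 and 0.715), and Aldoart2 beside Insm2 and Ppp1r1c beside Neurod1 had at most 12 and 17 counts in any library.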

How the data were processed

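Reads of 4 sequencing runs per library were merged, aligned to the mm10 build with HISAT2 and counted per gene with HTSeq in union mode by the authors, who deposited raw counts of 24062 genes in 10 columns. Union mode drops reads shared by overlapping genes, and the strand setting of the counting is not given in the sources used here although the kit keeps strand. The deposited counts were used as they stand, with 2 identical columns counted once. CPM were scaled by TMM in edgeR 4.0.16 (R 4.3.3, limma 3.58.1), and CPM per kb used exon lengths of GENCODE vM21. Genes were filtered with filterByExpr over treatment. Doxorubicin and control were compared by the edgeR quasi-likelihood test, two-sided, in WT and Het with genotype as a term (4 libraries), and in KO without a term (5 libraries), at an FDR under 0.01. The script was tested on simulated counts.

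In KO, embryos 1 and 2 deviated together in control and doxorubicin (r = 0.434 over 14904 genes), the pairing coming from the culture numbers. Alternatives were DESeq2 1.42.0, a minimum of 1 count, a fit of all libraries, library sizes without Rn45s, other thresholds, a prior count of 2 and each library left out. Genes named are the members, Sall2, up to 4 called genes per list with the largest change, list genes at 3 counts or fewer in every control library, the 5 genes nearest in pattern to Insm1 and to Neurog2 (log2 CPM, prior count 2), and the members' neighbours. Members and lists were chosen with earlier results of these data known. A few genes that this rule names are not reported here.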

Additional observations from a re-analysis of the deposited data

How the results depend on the processing

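The WT and Het comparison rests on 1 pair of libraries per genotype, and its 4274 calls became 0 with no replicate block, that is without the genotype term that pairs the libraries, 777 in the fit of all libraries, and 6833 and 1677 at an FDR under 0.05 and 0.001. Leaving out either embryo gave 0 calls in every case, with 3834 and 4573 genes at an unadjusted p under 0.05, so the range over replicates left out is 0 to 0. Each of these fits holds 1 pair, assumed to vary like the KO libraries that give its spread. DESeq2 gave 4119 calls, a minimum of 1 count 5752 and library sizes without Rn45s 4606. The KO comparison called 1911 genes, and 4555 in DESeq2, 10293 with the replicate block on embryos 1 and 2, and 5130 and 0 at an FDR under 0.05 and 0.001 (6844 at an unadjusted p under 0.05). Leaving out a KO library gave 0 to 8126 calls, with 194 without control embryo 1, 0 without control embryo 2 or either doxorubicin embryo, and 8126 without control embryo 3. Atoh8 changed sign when the WT pair was left out (log2 fold change 0.0699, against -1.1366 without the Het pair). In the fit of all libraries Neurog1, Neurod1, Atoh1 and Olig2 did not pass (edgeR FDR 0.0226, 0.029, 0.019 and 0.0126). The 7 members that were higher kept their direction under every alternative run. Their counts, at most 6 in any control library and at least 14 in any treated one, left it little room to change, so this adds no support. The cause of these shifts was not tested.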

Other observations

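The 43 genes with 3 counts or fewer in every control library and at least 100 in every treated library included the following, named here after their values were seen. The transcriptional corepressor gene Skor1 had at most 2 counts in control and 613 to 797 with doxorubicin. Sox3, a neural progenitor factor, had at most 2 and then 532 to 702 counts. Slc18a3, the vesicular acetylcholine transporter of cholinergic neurons, had at most 1 and then 467 to 609, and the pacemaker channel gene Hcn4 at most 3 and then 334 to 711. The growth factor gene Fgf4 had 0 counts in control and 151 to 209 with doxorubicin, the endoderm factor gene Foxa2 at most 2 and then 202 to 249, and the steroidogenic factor gene Nr5a1 at most 1 and then 212 to 376. Promoters were found for 247 of the 330 genes that went from 3 counts or fewer in every control library to at least 10 in every treated library, with a median observed-to-expected CpG ratio of 0.536. For all 7768 genes silent in control, the 4880 promoters found had a median ratio of 0.183.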
